A study of Mus musculus with 6 samples.

Results

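The N-glycan branching and capping enzymes are described here in biliary epithelial cells, the lining of the bile ducts, from mice whose liver epithelium carried a deletion of the transcription factor gene Klf5. They are 9 of the 24404 genes listed: Mgat1, Mgat2, Mgat3, Mgat4a, Mgat4b and Mgat5, the core fucosyltransferase Fut8, the galactosyltransferase B4galt1 and the sialyltransferase St6gal1. The members were taken by gene symbol, and the set was chosen on values of the contrast reported below, in which Mgat3 was already known to be low. Their group values, and how many of them pass a threshold, are therefore given as a description, without p-values. All 6 libraries came from adult C57BL/6 mice on the bile duct toxin DDC (diethoxycarbonyl-dihydrocollidine) for 1 week. The 3 Klf5 LKO libraries had the genotype Alfp-CreTg/+;Klf5flox/flox and the 3 control libraries Alfp-Cre+/+;Klf5flox/flox, so both groups carried the floxed alleles and only the first carried Cre. The Alfp promoter drives Cre in liver epithelium, hepatocytes included, and an effect of Cre itself cannot be told apart from that of the deletion. There was no uninjured group. Whether each library is 1 animal is not stated in the labels, and the spread that the p-values rest on could be technical in part.

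N-glycans are sugar trees that are transferred whole onto asparagine residues of new proteins in the endoplasmic reticulum, trimmed there, and rebuilt in the Golgi. MGAT1 opens the rebuilding by adding an N-acetylglucosamine to the trimmed core, MGAT2 starts the other arm, and MGAT4A, MGAT4B and MGAT5 add further branches. MGAT3 adds the bisecting N-acetylglucosamine, which extends no branch and hinders the branching enzymes from acting afterwards. FUT8 puts fucose on the core, B4GALT1 extends branches with galactose, and ST6GAL1 caps galactose with sialic acid. In epithelia these sugars sit on cadherins, integrins and growth factor receptors, and galectins bind the galactose-bearing branches.

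Reads per library, recovered from the normalised values, ran from 11726934 in control 2 to 24784167 in Klf5 LKO 2. The values are read counts divided by 1 size factor per library, called normalised counts here. A count of 0 has an upper 95% limit of about 3 reads, which correspond to between 2.24 and 4.74 normalised counts. Klf5 had 2056, 2018 and 2316 normalised counts in control against 977, 1192 and 1183 in Klf5 LKO. Which exons these counts cover is not given in the sources used here. The 7 biliary markers Epcam, Krt19, Krt7, Sox9, Spp1, Cldn4 and Cdh1 had reads in all 6 libraries, with a summed level of 459063 to 576387 in control and 400838 to 465102 in Klf5 LKO. The 10 hepatocyte markers summed to 11748 to 15492 and 10307 to 14677, and Alb, the most abundant, had 6081 to 9665 over the 6 libraries. Of these markers Apob, the gene of a lipoprotein component, was called lower, with 640 to 808 in control against 224 to 407 in Klf5 LKO (log2 fold change -1.24, limma adjusted p = 0.0322), while the urea cycle genes Cps1 and Ass1 had at most 10.6. The part of hepatocyte RNA in the results below was not tested. The 9 leukocyte markers differed between libraries of 1 group, at 2195, 988 and 142 in control against 1066, 82.0 and 228 in Klf5 LKO. The 6 endothelial markers summed to at most 407 and the 7 stellate and fibroblast markers to at most 80.5, with Col1a2, Col3a1, Lrat and Des listed at 0 throughout. In these bulk libraries, fewer cells of a type and less RNA per cell cannot be told apart.

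The promoter windows of members are shown because the deleted protein is a promoter-binding factor of the KLF family, whose known sites are CACCC boxes and GC-rich boxes. Windows were the 250 bases before the most upstream RefSeq start of a gene on GRCm38.p6, and 7 of the 9 members matched an entry; Mgat3 and Mgat4b did not. Windows are printed for Fut8, B4galt1 and Mgat4a, whose means were lower in Klf5 LKO, and for Mgat1, whose mean was not. They lie at chr12:77237854-77238103 (plus strand), chr4:40853985-40854234 (minus strand), chr1:37541017-37541266 (minus strand) and chr11:49243941-49244190 (plus strand). Capitals mark matches on either strand to CACCC or to CCNCNCCC, and matches that overlap form 1 run of capitals.
Fut8: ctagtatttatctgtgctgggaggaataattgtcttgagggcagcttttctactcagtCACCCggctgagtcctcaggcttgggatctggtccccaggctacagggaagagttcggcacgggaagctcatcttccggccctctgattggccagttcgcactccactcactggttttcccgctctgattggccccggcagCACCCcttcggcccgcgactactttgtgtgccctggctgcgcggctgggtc
B4galt1: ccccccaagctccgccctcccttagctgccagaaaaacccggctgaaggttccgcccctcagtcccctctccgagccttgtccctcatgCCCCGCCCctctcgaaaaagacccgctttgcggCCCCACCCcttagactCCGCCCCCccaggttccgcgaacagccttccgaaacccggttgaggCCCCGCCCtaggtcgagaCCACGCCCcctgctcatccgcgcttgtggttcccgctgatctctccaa
Mgat4a: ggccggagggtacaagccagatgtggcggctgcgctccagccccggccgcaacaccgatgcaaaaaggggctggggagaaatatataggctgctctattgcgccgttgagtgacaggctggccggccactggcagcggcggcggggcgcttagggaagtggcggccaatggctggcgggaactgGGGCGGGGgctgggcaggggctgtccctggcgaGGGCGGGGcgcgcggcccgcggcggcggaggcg
Mgat1: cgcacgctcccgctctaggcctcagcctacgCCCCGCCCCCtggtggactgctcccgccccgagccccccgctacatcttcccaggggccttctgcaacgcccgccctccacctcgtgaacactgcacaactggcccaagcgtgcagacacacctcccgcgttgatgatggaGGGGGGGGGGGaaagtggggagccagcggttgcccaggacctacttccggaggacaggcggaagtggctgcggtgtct

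The Fut8 window held 2 CACCC and 0 CCNCNCCC matches. That of B4galt1 held 1 and 5, with the 1 CACCC lying inside a CCNCNCCC match. The windows of Mgat4a and Mgat1 held 0 CACCC matches each, and 2 and 6 CCNCNCCC matches. Of all 32851 windows, with every listed start of a gene counted, 52% held CACCC and 45.9% held CCNCNCCC, so such letters are common. The windows of Mgat4a, lower in 2 of 3 Klf5 LKO libraries, and of Mgat1 held the same kind of match. The other windows, of Mgat2, Mgat5 and St6gal1, held 0, 1 and 3 CACCC and 2, 1 and 3 CCNCNCCC matches. The counts of these genes overlapped between the groups. Other listed starts of Mgat1, Mgat4a, Fut8 and St6gal1 gave other counts, with CACCC first and CCNCNCCC second. They were 2 and 1 or 0 and 2 for Mgat1, and 1 and 1 for Mgat4a. For Fut8 they were 1 and 2 at 1 start and 0 and 0 at the rest. For St6gal1 they were 3 and 2 or 1 and 0. Which start the cells used was not measured.

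The gene for the bisecting enzyme was nearly without reads in Klf5 LKO. The core fucose gene Fut8 and B4galt1, 1 of several galactosyltransferase genes, were lower in every Klf5 LKO library. The genes that open the first branches overlapped between the groups. The 2 groups did not overlap for 3 of the 9 members (Mgat3, Fut8 and B4galt1), each lower in Klf5 LKO, where 7.88% of the 13490 genes tested were lower without overlap and 7.72% higher. In the limma fit over all genes, 1 of the 9, Mgat3, passed the adjusted threshold of 0.05, against 0.652% of all genes tested (88 of 13490). Because the set was chosen with this contrast known, nothing is read from these shares.

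**Figure D1:**
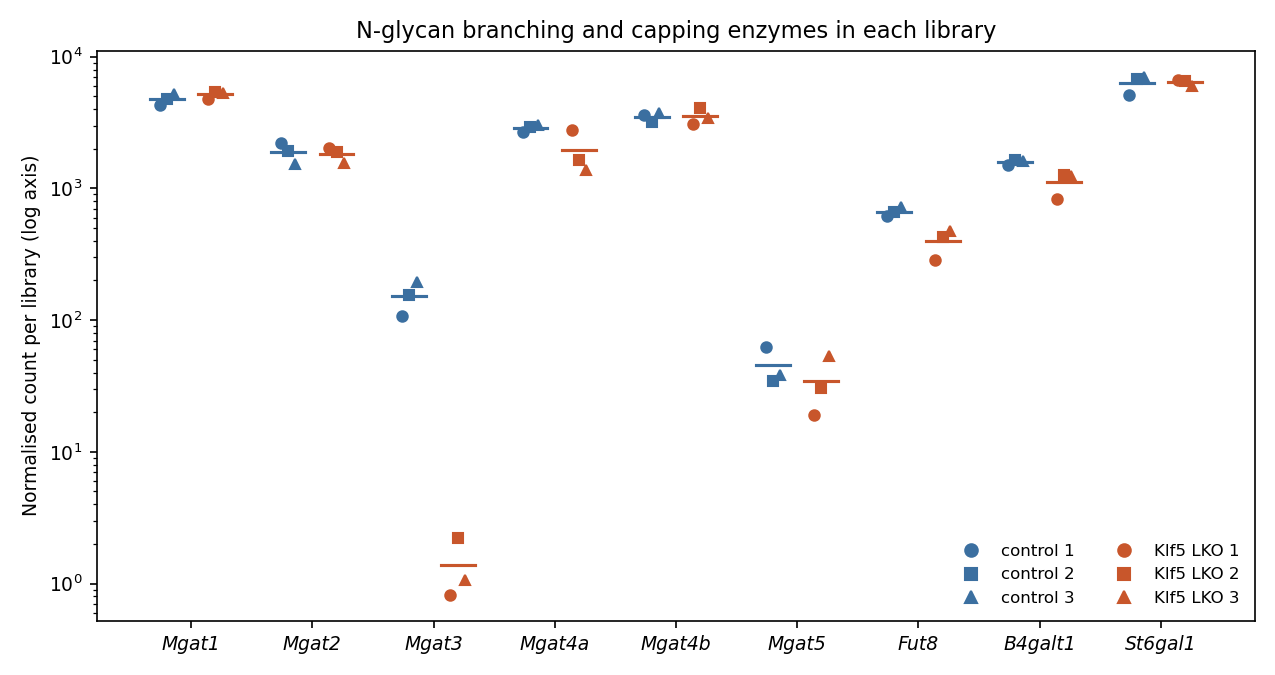
Normalised count (log axis) of each enzyme gene in each of the 6 libraries; blue points are control, orange points Klf5 LKO, the shape gives the library number and the short line is the mean of 3 libraries. Mgat3 stands between 0.822 and 2.24 in Klf5 LKO and between 107 and 195 in control, while the points of Mgat1, Mgat2, Mgat4b and St6gal1 overlap.

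Mgat3 (chromosome 15, 80173721 to 80215519, plus strand, GRCm38) was counted with 116, 98 and 192 reads in control 1, 2 and 3 and with 1, 3 and 1 reads in Klf5 LKO 1, 2 and 3. As normalised counts these are 107, 155 and 195 against 0.822, 2.24 and 1.06. The lowest control library was above the highest Klf5 LKO library, and each Klf5 LKO library lay at or below 3 reads, near the limit of detection. Summed over libraries and corrected for the size factors, 406 reads against 5 give a rate 105-fold higher in control, with an exact 95% interval of 44.6 to 325 that covers counting error only. On the log2(value + 1) scale of the fit the difference was -6.01 (SE 0.71, 95% confidence interval -7.57 to -4.46), a figure that depends on the pseudocount at such low counts. In the authors' deposited table the log2 fold change of Mgat3 is -1.77, and those fold changes are shrunken towards 0, judged from the values. No other annotated gene overlaps Mgat3. Mgat3 did not pass the threshold without control 2, so that 0 of 9 members passed there, nor with limma-voom; its log2 difference was -5.98 in the first case and -6.39 in the second. The mesothelial gene Msln was also lower in Klf5 LKO, at 0, 103 and 30.9 normalised counts against 1165, 1302 and 1258 in control. The 4 mesothelial markers (Msln, Upk3b, Wt1 and Gpm6a) summed to 2814 to 3019 in control and 1825 to 2045 in Klf5 LKO. Nearly all of that sum was Msln and Gpm6a. Gpm6a, the most abundant in Klf5 LKO, had 1815 to 1999 there and 1534 to 1829 in control. Upk3b had at most 22.4 and Wt1 at most 18.6 normalised counts in any library. The part of mesothelial transcripts in the Mgat3 difference was not tested.

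Fut8 (chromosome 12, 77238125 to 77476338, plus strand) codes for the enzyme that puts fucose on the core of N-glycans. It had 623, 657 and 723 normalised counts in control against 285, 428 and 476 in Klf5 LKO. Every Klf5 LKO library was below every control library, and Klf5 LKO 1 was the lowest of all. The means were 668 ± 51.2 and 396 ± 99.2 (SD, n = 3 each), 40.7% lower in Klf5 LKO, and the log2 difference was -0.78 (SE 0.21, 95% confidence interval -1.25 to -0.31). Fut8 was not among the genes passing in the limma fit. In the authors' deposited table its adjusted p lay just under 0.05, and with DESeq2 on the recovered reads just above it. An exon of the antisense gene 9530018F02Rik overlaps Fut8 in GENCODE, and whether strand was used in counting is not given in the sources used here. The same limit holds for Mgat2 and St6gal1, whose exons overlap Gm49383 and BC106179 on the other strand.

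B4galt1 (chromosome 4, 40804602 to 40854005, minus strand), whose product adds galactose to the branches, had 1507, 1652 and 1625 normalised counts in control. The Klf5 LKO libraries had 833, 1266 and 1251, again with no overlap and with Klf5 LKO 1 lowest. The means were 1594 ± 76.8 and 1117 ± 246 (SD, n = 3 each), 30.0% lower, and the log2 fold change was -0.54 (SE 0.17, 95% confidence interval -0.92 to -0.16). Without Klf5 LKO 1 it was -0.34. Fut8 and B4galt1 moved together over the 6 libraries (Pearson r = 0.98 on log2 values, a description over points that share the group difference).

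Mgat4a (chromosome 1, 37439340 to 37541016, minus strand) had 2662, 2948 and 3049 normalised counts in control against 2798, 1645 and 1388 in Klf5 LKO. Klf5 LKO 1 lay within the control range and the other 2 below it, so the groups overlapped, with means of 2886 ± 201 and 1944 ± 751 (SD, n = 3 each). The log2 fold change was -0.63 (SE 0.21, 95% confidence interval -1.10 to -0.17). It was -0.93 without Klf5 LKO 1, where Mgat4a passed the threshold and 2 of the 9 members did. Leaving out that library removes the only overlap, and Mgat4a passed in no other alternative. Its isoenzyme gene Mgat4b (chromosome 11, 50210890 to 50235103, plus strand) had 3595, 3193 and 3742 in control against 3098, 4108 and 3433 in Klf5 LKO. These values overlapped throughout, with a log2 fold change of 0.01 (95% confidence interval -0.29 to 0.30).

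Mgat5 (chromosome 1, 127205015 to 127488336, plus strand), whose product starts a branch that galectins favour, had few reads: 68, 22 and 38 in control against 23, 41 and 50 in Klf5 LKO. The normalised counts were 62.5, 34.8 and 38.6 against 18.9, 30.6 and 53.2, which overlap. The confidence interval of the log2 fold change (-1.70 to 0.77) ran well to both sides of 0. Mgat5 overlaps Tmem163 on the other strand, which had 1 read in the 6 libraries together.

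The genes that open branching overlapped between the groups. Mgat1 (chromosome 11, 49244191 to 49263030, plus strand) had 4278, 4741 and 5214 normalised counts in control against 4816, 5423 and 5289 in Klf5 LKO, a log2 fold change of 0.13 (95% confidence interval -0.14 to 0.39). Mgat2 (chromosome 12, 69184157 to 69186770, plus strand) had 2216, 1911 and 1527 in control against 2034, 1888 and 1570 in Klf5 LKO, a log2 fold change of -0.03 (95% confidence interval -0.39 to 0.32). For both, the groups overlapped and libraries of 1 group differed more than the 2 means did. St6gal1 (chromosome 16, 23224740 to 23360350, plus strand), the sialic acid cap, had 5165, 6733 and 7059 in control against 6693, 6599 and 5981 in Klf5 LKO. Its groups overlapped too, with a log2 fold change of 0.04 (95% confidence interval -0.26 to 0.33). St6gal1 is also known from hepatocytes and B cells. The B cell marker Cd79a had at most 15.6 normalised counts in any library, and the hepatocyte markers stood as given above.

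**Figure D2:**
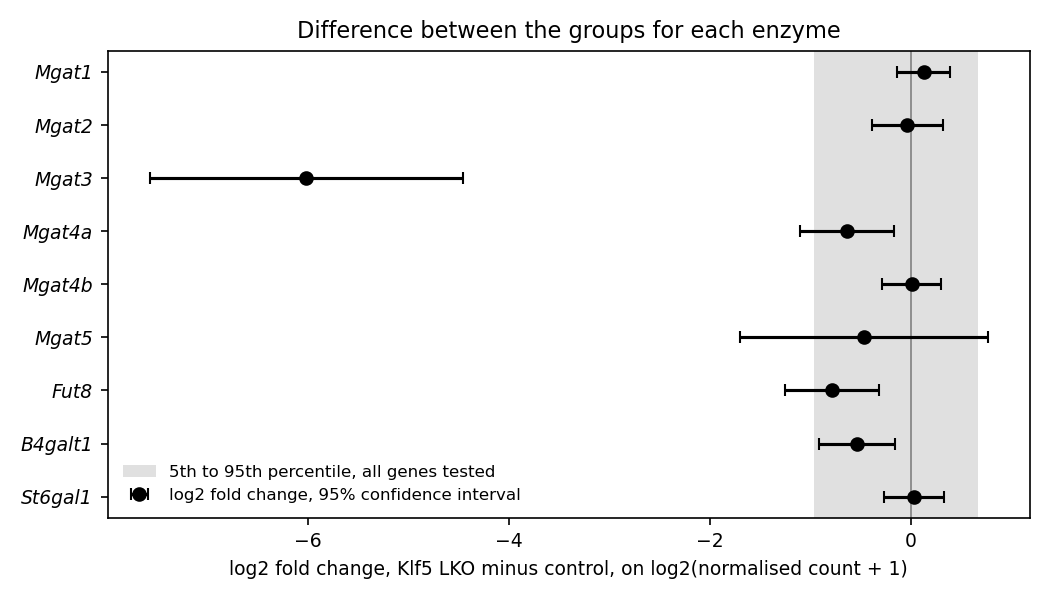
Log2 fold change of each enzyme gene, Klf5 LKO minus control, on log2(normalised count + 1), with its 95% confidence interval from the fit over all genes; the grey band spans the 5th to 95th percentile of all 13490 genes tested (-0.96 to 0.67). Only the point of Mgat3, at -6.01, lies outside the band, and the interval of Mgat5 is the widest after that of Mgat3.

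Within the Klf5 LKO group, library 1 differed most from the other 2, for these genes and over all genes tested. It was the lowest of the 3 for Mgat1, Mgat3, Mgat4b, Mgat5, Fut8 and B4galt1 and the highest for Mgat2, Mgat4a and St6gal1. How often library 1 was the lowest or highest over all genes was not counted, so nothing is read from this. Its log2 value differed from the mean of the other 2 libraries by -0.66 for Fut8, -0.59 for B4galt1 and 0.89 for Mgat4a. The median size of that difference over the 9 members was 0.50, against 0.30 over all genes tested. This median is the value of Mgat3, which rests on 1 read against 3 and 1. The members next to it in size were Mgat4b (-0.28) and B4galt1 (-0.59). In the other libraries the median over members lay between 0.08 in control 2 and 0.28 in Klf5 LKO 3. Over all genes tested it lay there between 0.20 in control 2 and 0.26 in Klf5 LKO 2. Klf5 LKO 1 also had the highest leukocyte marker sum of its group (1066). With a score over the 9 leukocyte markers as a term, an alternative chosen after seeing the data, the log2 fold changes were -6.33 for Mgat3, -0.90 for Fut8, -0.64 for B4galt1 and -0.58 for Mgat4a.

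Levels were compared between genes per kilobase of annotated exon. In control the order was Mgat4b (1291 ± 105 normalised counts per kilobase), St6gal1 (1285 ± 206), Mgat1 (1002 ± 98.9), Mgat2 (721 ± 132), B4galt1 (377 ± 18.1), Mgat4a (224 ± 15.6), Fut8 (84.5 ± 6.48), Mgat3 (32.6 ± 9.49) and Mgat5 (4.40 ± 1.46), each SD over n = 3. The ranges of Mgat4b and St6gal1 overlapped, as did those of St6gal1 and Mgat1, and every other pair of neighbours was separate. In Klf5 LKO Mgat3 (0.295 ± 0.162) ranked below Mgat5 (3.33 ± 1.70), with separate ranges, St6gal1 and Mgat4b changed places within their overlap, and the ranges of B4galt1 (264 ± 58.0) and Mgat4a (151 ± 58.3) now overlapped. The annotated length counts all exons of all isoforms, so a gene with long, rarely used exons is understated.

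Ratios were also taken within each library, on normalised counts plus 1, a pseudocount that matters at the counts of Mgat3. The log2 ratio of Mgat3 to Mgat5, the bisecting against the branching enzyme, was 0.76, 2.12 and 2.31 in control against -3.45, -3.29 and -4.72 in Klf5 LKO. Its means differed by -5.55. Mgat3 thus had more normalised counts than Mgat5 in every control library and fewer in every Klf5 LKO library. The other ratios were chosen after their values were seen. The log2 ratio of Mgat4a to Mgat4b was -0.43, -0.12 and -0.30 in control against -0.15, -1.32 and -1.31 in Klf5 LKO, so the balance of these isoenzyme genes in Klf5 LKO 1 was that of control. That of Fut8 to Mgat1 lay between -2.85 and -2.78 in control, a spread of 0.04 (SD), and was -4.07, -3.66 and -3.47 in Klf5 LKO. That of B4galt1 to St6gal1 was -1.78, -2.03 and -2.12 in control against -3.00, -2.38 and -2.26 in Klf5 LKO, close to one another but separate. That of Mgat2 to Mgat1 was -0.95, -1.31 and -1.77 in control against -1.24, -1.52 and -1.75 in Klf5 LKO, which overlap, with a difference in means of -0.16.

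**Figure D3:**
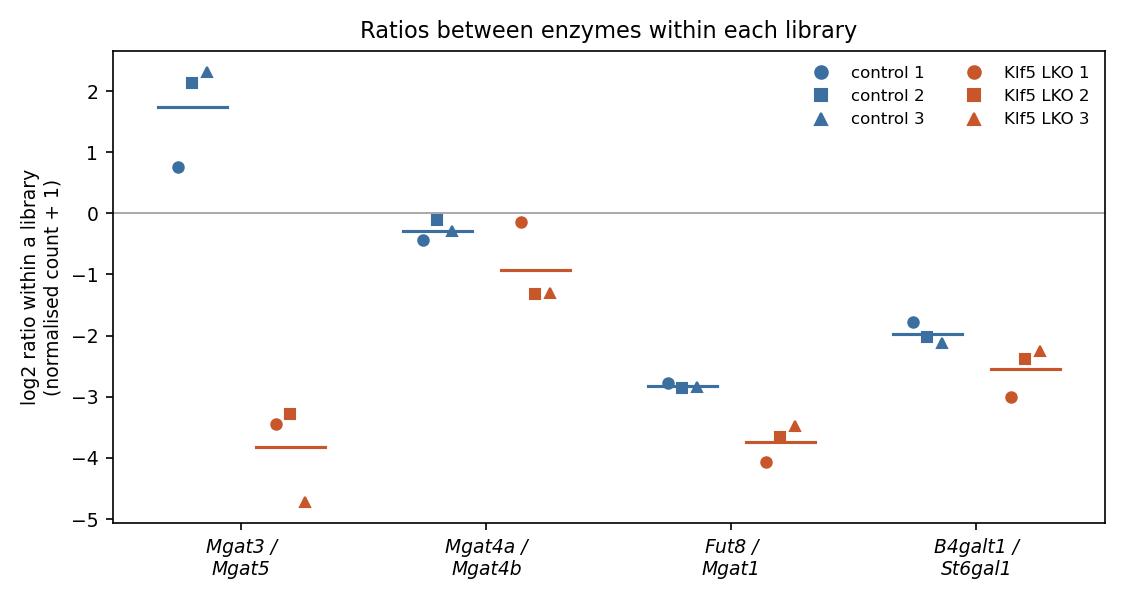
Log2 ratio of normalised counts (plus 1) of 2 enzyme genes within each of the 6 libraries; colours, shapes and mean lines are as in the plot of normalised counts, and the ratios are not corrected for gene length. The groups are separate for Mgat3 to Mgat5 (means 1.73 and -3.82), Fut8 to Mgat1 (-2.82 and -3.74) and B4galt1 to St6gal1 (-1.97 and -2.55), and they overlap for Mgat4a to Mgat4b.

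Among 10379 genes with a mean of at least 100, those most like Mgat3 over the 6 libraries, by Pearson correlation of log2 values, were Phf2 (0.997), Kcnq1 (0.996), Fxyd6 (0.993), Lamb3 (0.990) and Tmem41a (0.990). All 6 points share the group difference, so the correlation mainly orders genes by how cleanly the groups separate. The sizes differed. For the potassium channel gene Kcnq1 the control mean was 1717 and the Klf5 LKO mean 481, while the histone demethylase gene Phf2 ran from 469 to 487 in control and from 329 to 350 in Klf5 LKO. Klf5 itself ranked 10th, with r = 0.984.

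The rest of the glycosylation machinery was followed in 11 lists of other genes, 154 in all, of which 131 could be tested. None of the 131 passed the limma threshold in either direction. At an unadjusted p under 0.05 there were 21, of which 15 were lower and 6 higher in Klf5 LKO, or 16.0%, against 10.9% of all genes tested. The edgeR quasi-likelihood test and limma-voom on the recovered reads called 0, and DESeq2 called 4, or 3.05%, against 2.48% of all genes with an adjusted p there: St3gal4, St3gal3 and Lgals1 higher and C1galt1 lower. The median log2 fold change of the 131 was -0.04, against -0.01 over all genes tested. The groups did not overlap for 16 of them with Klf5 LKO lower, or 12.2%, against 7.88% of all genes tested, and for 10 with it higher, or 7.63%, against 7.72%.

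The early steps had medians near 0. The 23 genes that assemble the lipid-linked precursor had a median log2 fold change of 0.05, the 12 subunits of oligosaccharyltransferase, which transfers it to protein, -0.09, and the 16 genes of glucose and mannose trimming and lectin quality control -0.07. Of the subunits, 11 of 12 had negative values, none beyond -0.31, the value of Rpn2 (means 6759 ± 605 and 5442 ± 439, SD, n = 3 each, limma adjusted p = 0.363). In the precursor list the smallest p belonged to the glucosyltransferase gene Alg6, with 528 and 371 (limma adjusted p = 0.313), and the mannosyltransferase gene Alg12, with 132 and 83.3 (0.513). For trimming they belonged to the chaperone gene Calr (4736 and 4024, limma adjusted p = 0.615) and the mannosidase gene Man1b1 (750 and 636, 0.650). The 28 genes of nucleotide sugar supply had a median of 0.01. In that list the GlcNAc-nucleotide pyrophosphorylase relative Uap1l1 had means of 1052 and 722 (limma adjusted p = 0.230).

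Of the other sialyltransferases, 12 of 19 were tested, with a median log2 fold change of 0.12. St3gal4, which caps galactose by another linkage than St6gal1, had 9861, 10423 and 9886 normalised counts in control against 13605, 13388 and 13810 in Klf5 LKO. Every Klf5 LKO library was higher, and the log2 fold change was 0.44 (SE 0.11, limma adjusted p = 0.116; DESeq2 adjusted p = 0.00180). St3gal3, of the same kind, had 162, 204 and 125 against 497, 353 and 239, a log2 fold change of 1.11 (SE 0.31, limma adjusted p = 0.165; DESeq2 adjusted p = 0.0289). Of the 17 other galactosyltransferase and lactosamine genes, 10 were tested, with a median of 0.07. B4galt2, a relative of B4galt1, had 457, 477 and 478 in control against 577, 657 and 618 in Klf5 LKO (limma adjusted p = 0.427), higher where B4galt1 was lower. B3gnt3, which extends lactosamine chains, had means of 216 and 112 (limma adjusted p = 0.295). The 7 tested of 9 other fucosyltransferases had a median of 0.01; Pofut2 had 880 and 1082 (limma adjusted p = 0.550) and Fut10 30.4 and 56.5 (0.591).

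**Figure D4:**
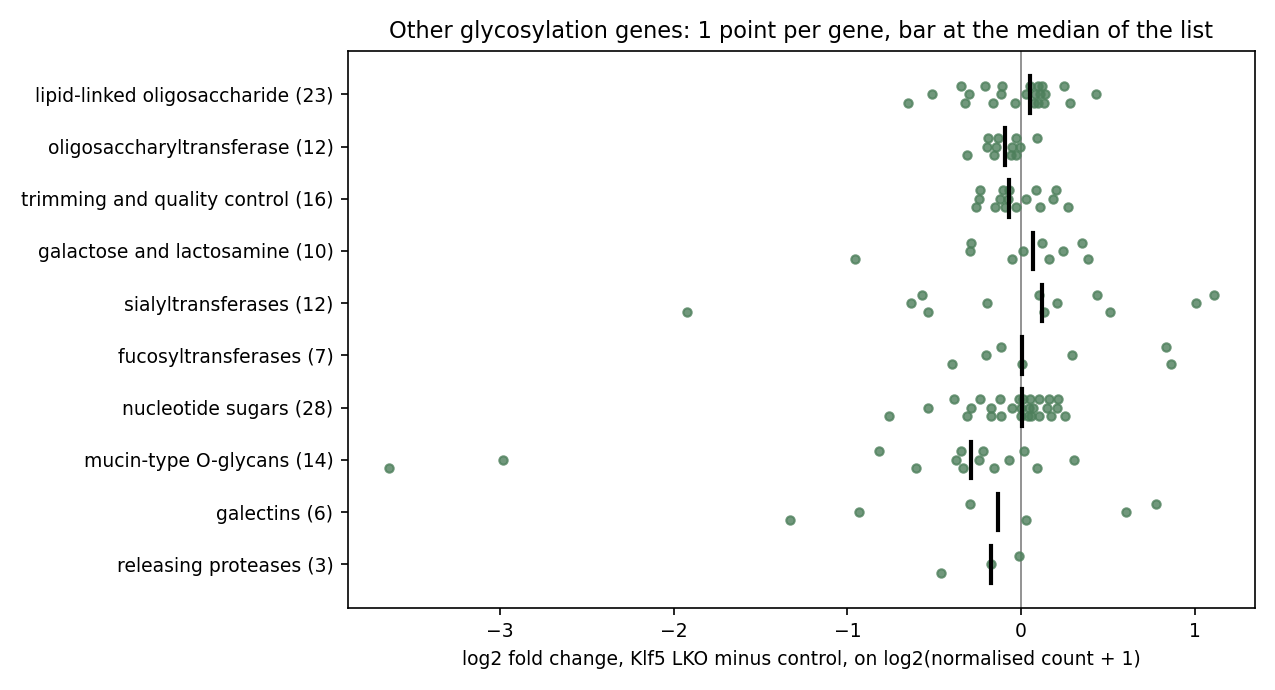
Log2 fold change, Klf5 LKO minus control, of the 131 tested genes of other glycosylation lists, with 1 point per gene, the number of genes in parentheses and a bar at the median of each list. The medians run from -0.29 for mucin-type O-glycan enzymes to 0.12 for sialyltransferases, and the lowest point is Galnt6 at -3.64, a gene with 0 to 50.6 normalised counts per library.

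Mucin-type O-glycan enzymes had the lowest median of the lists, -0.29 over 14 tested of 16, with 11 negative values. C1galt1, which builds the core of these glycans, had 818, 710 and 838 normalised counts in control against 540, 521 and 490 in Klf5 LKO. The groups did not overlap, and the log2 fold change was -0.61 (SE 0.16, limma adjusted p = 0.151; DESeq2 adjusted p = 0.0430). Galnt6, which starts O-glycans, had 50.6, 45.8 and 4.06 in control against 0, 0 and 5.32 in Klf5 LKO (limma adjusted p = 0.350). Among galectins, the lectins that read galactose-bearing branches, 6 of 8 were tested, with a median of -0.13. Lgals1 had 2957, 2624 and 2176 in control against 3552, 3938 and 4226 in Klf5 LKO, separate groups with a log2 fold change of 0.60 (SE 0.14, limma adjusted p = 0.0935; DESeq2 adjusted p = 0.00466). Lgals3 had 1218, 692 and 862 against 777, 357 and 376 (log2 fold change -0.93, limma adjusted p = 0.246), with Klf5 LKO 1 inside the control range, and passed without Klf5 LKO 1 (log2 fold change -1.29, limma adjusted p = 0.0263). Of the proteases that release Golgi glycosyltransferases, Bace2 had means of 444 and 323 (limma adjusted p = 0.430) and Bace1, which cleaves ST6GAL1, 1387 and 1220 (0.770). The Mgat relatives Mgat4c and Mgat4d had 0 reads in every library and Mgat5b 1 read in Klf5 LKO 3, so none was tested.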

How the data were processed

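RNA-seq libraries of 3 Klf5 LKO and 3 control samples of biliary epithelial cells were made from low-input total RNA with amplification, per the labels' protocols. The submitters' processing notes name TopHat, Bowtie2, DESeq2 and the build mm10. How reads were counted, with which annotation and filters, is not given in the sources used here. The authors deposited a signal per gene and library, a read count divided by 1 size factor, and 100% of values above 0 were whole multiples of 1 read (tolerance 0.001). Their comparison table gives log2 fold changes, a Wald score, p-values and adjusted p-values, per the file headers. Reads carry no molecular identifiers, so the exact interval of the Mgat3 read ratio and the limits at 0 reads cover counting error only, while the limma intervals rest on the spread between libraries.

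As the values are not raw counts, limma 3.58.1 (eBayes with trend, R 4.3.3) was fitted to log2(value + 1) over 13490 genes (mean 10 or more), two-sided, with Benjamini-Hochberg adjustment over all of them and a threshold of 0.05. DESeq2 1.42.0, edgeR 4.0.16 and limma-voom on recovered reads were alternatives, with other scalings, filters and pseudocounts, each library left out and the replicate number as a block. Positions and exon lengths are from GENCODE M21 (GRCm38), which matched 23350 of 24404 symbols. Groups and replicate numbers come from the sample titles. The members and gene lists were chosen with earlier results of these data known. Named are the members, Klf5, in each list the called genes or the 2 of smallest p, the 5 genes most correlated with Mgat3, and cell type markers; some genes that this takes are not reported here.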

Additional observations from a re-analysis of the deposited data

How the results depend on the processing

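The direction of the log2 fold change of Mgat3, Mgat4a, Fut8, B4galt1 and Mgat1 was the same in all 17 alternatives, and of Mgat5 in all 16 it could be computed in (its mean is below 50), while the near-0 values of Mgat2, Mgat4b and St6gal1 changed sign in 3, 4 and 2. The value of Mgat3 was -4.59 with a pseudocount of 5, -6.75 with DESeq2 and -6.64 with edgeR, and from -6.26 to -5.82 with 1 library left out. Its balance with Mgat5 differed between groups by -4.18 with a pseudocount of 5 and by -6.03 to -5.10 with 1 library left out. With 1 library left out, the ranges were -0.93 to -0.56 for Fut8, -0.64 to -0.34 for B4galt1, -0.93 to -0.43 for Mgat4a and -0.84 to -0.12 for Mgat5.

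The number of members called was 0 with limma-voom and between 0 (without control 2) and 2 (without Klf5 LKO 1) with 1 library left out. For the other glycosylation genes it was 4 with DESeq2, 1 (Lgals3) with the replicate block, and 0 to 1 with 1 library left out. Over all genes, 335 were called with DESeq2 (35.5% of them higher, against 25% of 88), 51 with the leukocyte term, and from 14 (without control 2) to 105 (without Klf5 LKO 1) with 1 library left out. The cause of these changes was not tested.

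Same-numbered libraries did not all deviate together (correlations of 0.18, -0.01 and 0.11 for numbers 1, 2 and 3). Not every library correlated best with its own number. Deviations from a mean of 3 libraries are tied to one another. They therefore cannot decide whether the replicate number pairs the libraries. The replicate block gave 110 calls. Few reads stood behind Mgat3 in Klf5 LKO (1 to 3 a library) and Mgat5 in both groups (22 to 68).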
